A study of Mus musculus with 8 samples.

Results

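The folliculin, Rag GTPase and MiT/TFE genes are 10 of the 26848 genes measured in RAW264.7, a mouse line with macrophage properties, on polyetheretherketone (PEEK), an implant polymer. The members were Fnip1, Fnip2, Flcn, Rraga, Rragc, Rragd, Lamtor1, Tfeb, Tfe3 and Mitf, taken by gene name. They were chosen by their pathway and with the fold changes of this same comparison known, so those fold changes and their p-values describe the genes and support nothing further. Poly(A)-selected RNA was sequenced from cells on PEEK with a nano- and microstructured surface (structured 1 to 4) and from cells on smooth PEEK (smooth 1 to 4). The line, the polymer and every other labelled condition were shared by both surfaces, and the labels give no genotype, agent or time. All 10 members had enough reads to be tested, although Rragd was close to the lower limit.

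On lysosomes, the Rag GTPases work as heterodimers that recruit the kinase complex mTORC1 when amino acids are plentiful, and the Ragulator complex anchors them to the membrane. Folliculin, bound to FNIP1 or FNIP2, is a GTPase-activating protein for RagC and RagD. RagC or RagD in its active state presents the MiT/TFE transcription factors TFEB, TFE3 and MITF to mTORC1, which phosphorylates them and holds them in the cytoplasm. When folliculin is inactive these factors enter the nucleus and switch on lysosomal and autophagy genes through a DNA element known as CLEAR, whose core is CACGTG. In macrophages TFEB and TFE3 are known regulators of lysosomal and inflammatory genes. Only transcript levels were measured here, not phosphorylation, nucleotide state or location.

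The start regions are shown because the CLEAR core is the DNA element through which MiT/TFE factors act, and because some genes of the pathway are themselves reported targets. All 10 members matched RefSeq start windows of build GRCm38.p6, which run from 250 bases before to 50 bases after a start, in 15 windows. CACGTG, which reads the same on both strands, occurred in windows of 3 of the 10 members, namely Fnip1, Rragc and Lamtor1. It occurred in 7.15% of all 32851 windows and in windows of 8.09% of all 27025 genes. In these 3 windows the core was extended to TCACGTG or its reverse complement CACGTGA, which overlap the core. That extension occurred in 3.77% of all windows and in windows of 4.29% of all genes. The palindrome TCACGTGA, found in 0.974% of windows, was in none of the members' windows. The core began 75 bases before the start in Fnip1, 112 in Rragc and 68 in Lamtor1, and the 30 bases around it are given with the core in capitals. The Fnip1 stretch lies at chr11:54438092-54438121, the Rragc stretch at chr4:123917309-123917338 and the Lamtor1 stretch at chr7:101905757-101905786, each on the plus strand and 5′ to 3′.
Fnip1 E-box window: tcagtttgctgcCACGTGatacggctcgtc
Rragc E-box window: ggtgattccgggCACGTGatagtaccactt
Lamtor1 E-box window: ctgccttcctatCACGTGccgcgggtccgc
The whole start window of Fnip2, the member with the lowest fold change among those called, lies at chr3:79567630-79567929 on the minus strand. It contains no CACGTG and is printed without capitals.
Fnip2 start window: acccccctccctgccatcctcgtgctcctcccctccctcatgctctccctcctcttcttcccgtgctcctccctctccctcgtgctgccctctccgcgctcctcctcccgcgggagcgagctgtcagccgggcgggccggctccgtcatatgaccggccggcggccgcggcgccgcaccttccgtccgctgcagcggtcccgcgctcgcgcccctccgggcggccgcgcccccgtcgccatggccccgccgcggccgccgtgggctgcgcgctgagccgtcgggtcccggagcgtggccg
Its bases are 78.0% G or C, against 70.7% in the Fnip1 window and 56.3% in the Lamtor1 window. A missing match says only that these letters are not in this window, and a match was not tested as a binding site.

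Library totals ran from 64479829 to 73098735 in deposited count units. About 4 of these seem to stand for 1 fragment, which is read from the pile-up of low values at multiples of 4 and not from a label. The labels call every library but the first of each surface a biological replicate, and they name no separate cultures. The p-values therefore rest on library-to-library spread that could be technical alone. All 10 macrophage markers were measured and none was called, with a summed level of 6646 to 6806 CPM (counts scaled to a common library size) in structured and 6312 to 6733 CPM in smooth libraries. Neutrophil markers summed to 17.8 to 60.7 CPM in structured and 4.95 to 6.23 CPM in smooth libraries. Of that list 14 of 15 were measured, 5 of 6 tested were higher, and Ngp, Ltf, Elane, Mpo, Ctsg, Retnlg, Mmp8 and Cxcr2 were at 0 in every smooth library. Hepatocyte markers summed to 125 to 436 CPM in structured and 65.3 to 304 CPM in smooth libraries, with none of 16 called. Skeletal muscle markers summed to 35.8 to 43.5 CPM in structured and 37.9 to 82.0 CPM in smooth libraries, with 4 of 14 tested lower and Tcap at 0 on the structured surface. The part of these transcripts in the results was not tested. Values with libraries left out or with the hepatocyte marker level as a covariate are given below. Every structured library held more neutrophil marker RNA than any smooth one, so leaving libraries out cannot tell that RNA apart from the surface.

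Fnip2 was the member that differed most clearly between the surfaces. Fnip2, which encodes a partner that binds folliculin and the energy sensor AMPK, lies at 79455974 to 79567796 on the minus strand of chromosome 3 in the deposited table, which names no build. Its level was 142, 145, 137 and 138 CPM in structured 1 to 4, against 183, 181, 204 and 185 CPM in smooth 1 to 4. Every structured library lay below every smooth one, and the structured libraries were the more alike. The mean was 140.2 ± 3.43 CPM on the structured and 188 ± 10.8 CPM on the smooth surface (SD, n = 4 each). The log2 fold change, structured minus smooth, was -0.42 ± 0.04 (SE; edgeR quasi-likelihood test with Benjamini-Hochberg adjustment over all tested genes, adjusted p = 0.00145), a level 25.5% lower. In bulk RNA, fewer cells that express a gene and less of its RNA per cell cannot be told apart. The call held with any 1 library left out, at folds of -0.44 to -0.38. With structured 2, 3 and 4, which held the most neutrophil marker RNA, left out together, the fold was -0.41. Structured 1, the library kept, still held 17.8 CPM of neutrophil markers, above the 4.95 to 6.23 CPM of the smooth libraries. That RNA and the surface therefore cannot be told apart in this fit either. The lone structured library was then assumed to vary like the others, and the edgeR adjusted p was 0.228.

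Fnip1, the paralogous folliculin partner, did not pass the test. It measured 38.3, 37.1, 36.9 and 34.0 CPM in structured 1 to 4, against 38.0, 39.7, 44.2 and 40.3 CPM in smooth 1 to 4. The surfaces overlapped only through structured 1 and smooth 1, and the fold change was -0.15 ± 0.06 (95% interval -0.28 to -0.02; edgeR BH-adjusted p = 0.193). Flcn encodes folliculin itself. It measured 58.4, 57.1, 50.6 and 50.1 CPM in structured 1 to 4, against 61.9, 53.1, 54.9 and 56.1 CPM in smooth 1 to 4, with a fold change of -0.06 ± 0.07 (edgeR BH-adjusted p = 0.693). Structured 1 and 2 lay within the smooth range and structured 3 and 4 below it.

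Length-normalised levels put Fnip2 well above Fnip1. FPKM stands for fragments normalised to gene length and library depth. Set against CPM, the length behind it was close to that of all annotated exons of a gene combined, retained introns included. These come to 8364 bases for Fnip2, which has retained-intron models, and 7119 for Fnip1, which has none. Levels compared between genes depend on this length. Fnip2 averaged 15.1 ± 0.310 FPKM on the structured and 20.2 ± 1.07 FPKM on the smooth surface. Fnip1 averaged 4.82 ± 0.244 FPKM on the structured and 5.32 ± 0.296 FPKM on the smooth surface. Fnip2 therefore supplied 75.8 ± 0.779% of the summed Fnip1 and Fnip2 FPKM in structured libraries and 79.2 ± 0.403% in smooth libraries (SD, n = 4 each). The shares spanned 75.1% to 76.8% in structured and 78.8% to 79.8% in smooth libraries, without overlap. The summed FPKM of both partners was 1.71 ± 0.0931 times that of Flcn in structured and 2.10 ± 0.205 times in smooth libraries. These ratios follow from the Fnip2 difference that the members were chosen with, and they carry no test.

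**Figure D1:**
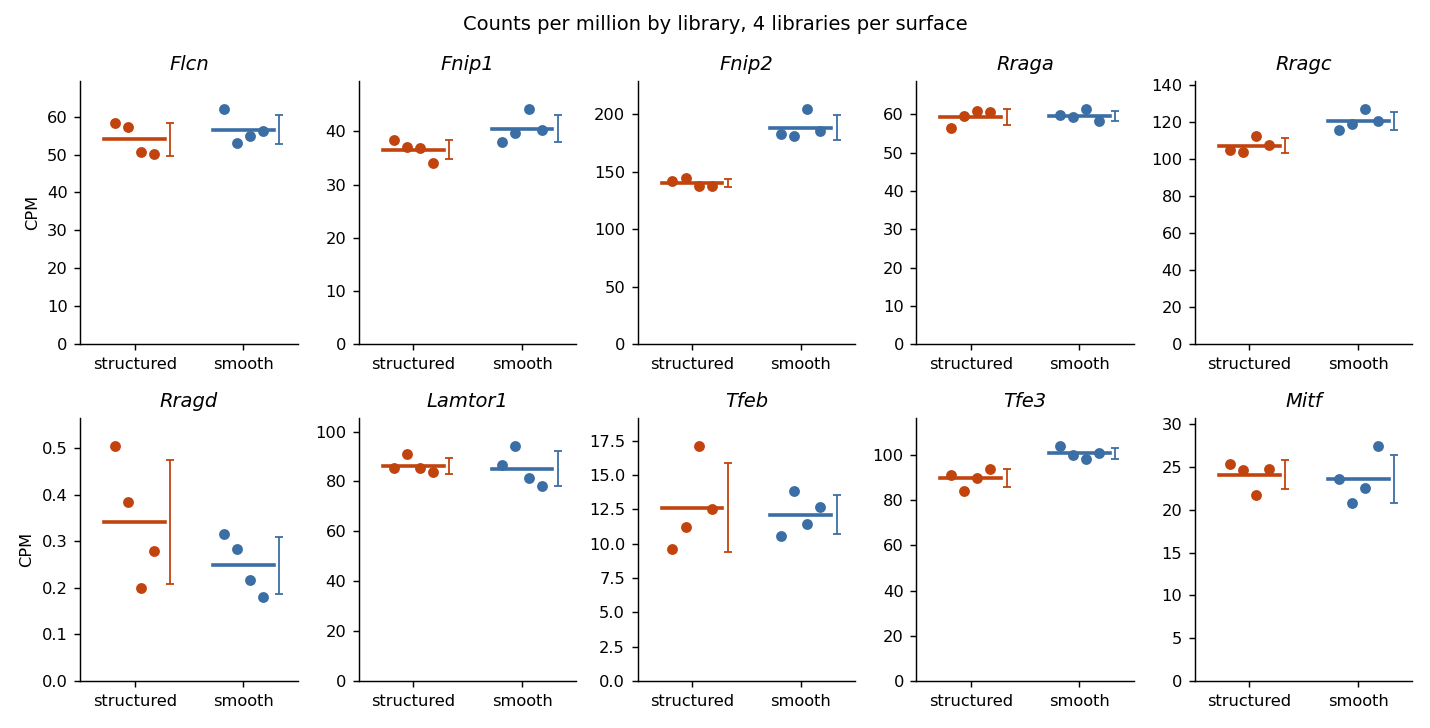
CPM of each member on a linear axis from 0, with 1 point per library, 4 structured libraries left of 4 smooth ones, a bar at the mean and a bracket of 1 SD on each side. Fnip2, Rragc and Tfe3 separate without overlap, with every structured library lower.

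Among the Rag GTPases, Rragc came closest to the threshold. Rragc encodes RagC, the partner on which folliculin acts. The gene, whose start window holds the CACGTG core printed above, lies at 123917446 to 123936997 on the plus strand of chromosome 4 in the table. It measured 105, 104, 113 and 108 CPM in structured 1 to 4, against 115, 119, 127 and 121 CPM in smooth 1 to 4. The surfaces did not overlap, with the highest structured library, structured 3, just below the lowest smooth library, smooth 1. The fold change was -0.17 ± 0.04, and the edgeR BH-adjusted p of 0.0506 lay just above the threshold of 0.05. The edgeR adjusted p was 0.0401 without structured 3 and 0.0455 without smooth 1, and leaving out any of the other libraries kept it above 0.05. Rragc shares 264 exon bases with 4930535I16Rik on the opposite strand, a gene not analysed here, and whether the counting used strand is not given in the sources used here.

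Rraga encodes RagA, a Rag partner of RagC or RagD. It was almost level, at 59.4 ± 2.09 CPM on the structured and 59.6 ± 1.29 CPM on the smooth surface, with a fold change of -0.01 ± 0.04 and a 95% interval of -0.10 to 0.09 (edgeR BH-adjusted p = 0.963). In FPKM the Rragc to Rraga ratio was 0.842 to 0.902 in structured and 0.937 to 1.00 in smooth libraries. Rragd, which encodes the RagC relative RagD and is itself a known MiT/TFE target, was barely detected. It had 35, 26, 14 and 18 count units in structured 1 to 4, against 21, 20, 14 and 13 in smooth 1 to 4. At about 4 units per fragment, a reading from the values, a handful of fragments would stand behind each. Its fold change of 0.46 ± 0.47 had a 95% interval of -0.57 to 1.49, and a difference was not detectable at this depth. Lamtor1 encodes the membrane anchor of Ragulator. It averaged 86.3 ± 3.14 CPM on the structured and 85.1 ± 6.97 CPM on the smooth surface, with a fold change of 0.02 ± 0.06 (edgeR BH-adjusted p = 0.909). It shares 600 exon bases with Lrrc51 on the opposite strand, a gene that averaged 166 count units.

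Tfe3 was the MiT/TFE factor with the highest FPKM and the member nearest below the threshold. The gene lies at 7762560 to 7775202 on the plus strand of chromosome X in the table. It measured 91.3, 84.3, 89.8 and 93.6 CPM in structured 1 to 4, against 104, 100.04, 98.1 and 101 CPM in smooth 1 to 4. The surfaces did not overlap, and structured 2 was the lowest library. The fold change was -0.17 ± 0.04, a level 10.9% lower, with an edgeR BH-adjusted p of 0.04997. This call was lost with each of the 8 libraries left out in turn, at folds of -0.19 to -0.14 and edgeR adjusted p of 0.0801 to 0.146. Correcting each library for GC content and exon length moved the fold to -0.10 (edgeR adjusted p = 0.345).

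Tfeb and Mitf did not pass the test. Tfeb measured 9.62, 11.2, 17.1 and 12.5 CPM in structured 1 to 4, against 10.6, 13.8, 11.4 and 12.7 CPM in smooth 1 to 4. Structured 1 was the lowest and structured 3 the highest of all 8 libraries, so the structured values spanned the smooth ones. The fold change of Tfeb was 0.06 ± 0.16, with a 95% interval of -0.29 to 0.41 (edgeR BH-adjusted p = 0.903), and without structured 3 it was -0.13. Mitf, known for its role in melanocytes and osteoclasts, averaged 24.1 ± 1.64 CPM on the structured and 23.6 ± 2.80 CPM on the smooth surface, with a fold change of 0.03 ± 0.08 (edgeR BH-adjusted p = 0.906). Tfec, the family's myeloid-restricted relative and no member here, had 1.22 ± 0.205 CPM on the structured and 1.77 ± 0.373 CPM on the smooth surface. Its libraries did not overlap, but its fold change of -0.54 ± 0.23 did not pass (edgeR BH-adjusted p = 0.234). Of the summed FPKM of these 4 factors, Tfe3 supplied 59.0% to 62.4% in structured and 60.7% to 65.2% in smooth libraries, which overlapped. Mitf supplied 24.4 ± 2.21% on the structured and 22.2 ± 1.95% on the smooth surface, and Tfeb 13.8 ± 3.23% on the structured and 12.5 ± 1.51% on the smooth surface (SD, n = 4 each).

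**Figure D2:**
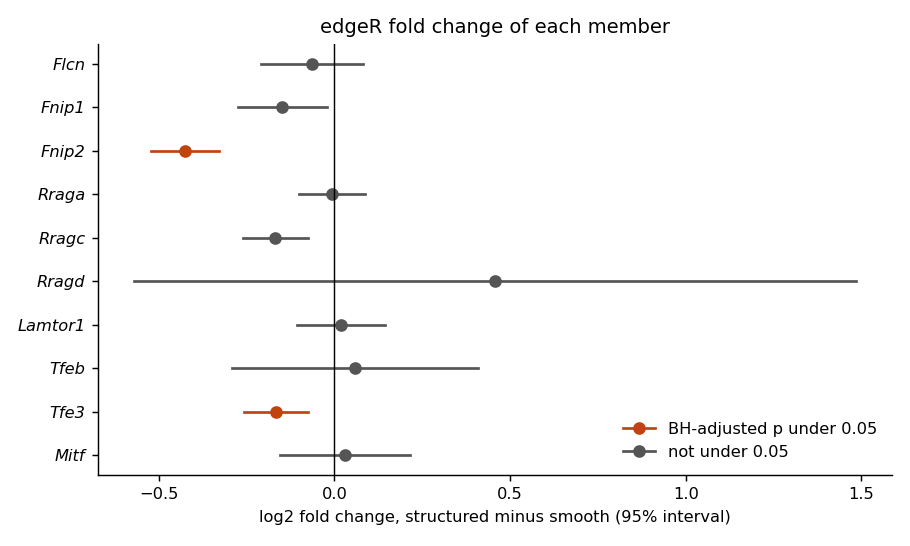
Fold change of each member on the log2 scale, structured minus smooth, with its 95% interval from the edgeR fit. Fnip2 lies at -0.42 and Tfe3 at -0.17, both coloured for an adjusted p under 0.05, and the interval of the barely detected Rragd spans -0.57 to 1.49.

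Of the 10 members, 2 were called lower on the structured surface, Fnip2 and Tfe3, where 2.75% of all 16006 tested genes were called lower. None was called higher in edgeR, nor at an unadjusted p under 0.05, nor by DESeq2 or limma-voom, where 1.01% of all genes were called higher. At an unadjusted p under 0.05, 4 members were lower, where 10.6% of all tested genes were lower and 8.14% higher. Every structured library was below every smooth one for 3 members, Fnip2, Rragc and Tfe3, and for 7.03% of all tested genes. The opposite separation, found in 5.19% of tested genes, occurred in none. The members' median fold change was -0.03 on the log2 scale, against 0.01 over all tested genes. Since the members were chosen with this comparison known, nothing is read from these shares.

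The members spanned a wide range of levels. By mean FPKM over the 8 libraries the order was Rraga (34.4 ± 0.961), Rragc (31.9 ± 2.19), Lamtor1 (25.0 ± 1.504), Fnip2 (17.7 ± 2.82), Flcn (12.0 ± 0.921), Tfe3 (9.63 ± 0.693), Fnip1 (5.07 ± 0.366), Mitf (3.61 ± 0.320), Tfeb (2.04 ± 0.385) and Rragd (0.0526 ± 0.0199). These SDs are over both surfaces. Rraga and Rragc were the only neighbours in this order whose ranges overlapped. The order was the same on each surface, by the median, and with each library left out. None of these checks changed the length behind the FPKM. The longest Lamtor1 transcript has 1936 bases, against 3215 in its combined exons, and the longest Rragc transcript 2950, against 3341. Rraga has 1618 bases in its combined exons. Whether the order of Rraga, Rragc and Lamtor1 holds with another length was not tested. The coefficient of variation of FPKM between libraries of a surface was highest for Rragd, at 40.1% in structured and 25.2% in smooth libraries, followed on the structured surface by Tfeb, at 25.9%, against 11.2% in smooth libraries. For the other 8 members it stayed between 2.05% and 7.85% in structured and between 2.56% and 11.7% in smooth libraries.

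**Figure D3:**
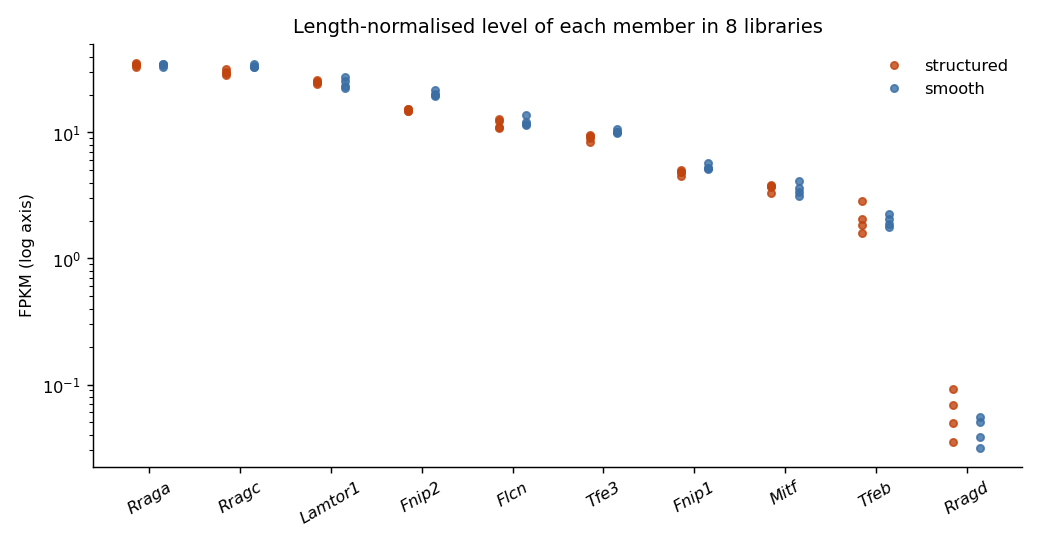
Deposited FPKM of each member on a log axis, 1 point per library, structured libraries left of smooth ones, ordered by the mean over all 8 libraries. Rraga and Rragc overlap near the top at means of 34.4 and 31.9 FPKM, and Rragd lies at 0.0526 FPKM.

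Few of the genes around the members in the pathway were called. Of 69 tested genes of the nutrient-sensing lists that are neither members nor CLEAR targets, 2 were called lower, a share of 2.90% beside the 2.75% over all genes. None was called higher in edgeR. At an unadjusted p under 0.05, 16 were lower and 4 higher, where 10.6% of all tested genes were lower and 8.14% higher. Of these 16, 4 were among 10 mTORC1 and TSC-Rheb genes and 3 among 10 mTORC1 substrates and effectors. DESeq2 called 9 lower and 2 higher, among 847 lower and 528 higher in all. By limma-voom 2 were lower and none higher. The difference from all genes was not tested. The genes called lower by edgeR were Tsc2 and Larp1. Tsc2, a subunit of the complex that restrains mTORC1 through Rheb, averaged 66.2 ± 2.83 CPM on the structured and 77.6 ± 2.26 CPM on the smooth surface, a fold change of -0.23 ± 0.04 (edgeR BH-adjusted p = 0.0219). The Tsc2 call was lost without structured 2, structured 4, smooth 3 or smooth 4, at leave-one-out folds of -0.25 to -0.21. Larp1, an mTORC1-regulated repressor of ribosomal protein translation, averaged 418 ± 16.9 CPM on the structured and 468 ± 14.4 CPM on the smooth surface, a fold change of -0.16 ± 0.04 (edgeR BH-adjusted p = 0.0435). Its call held only without structured 3 among the libraries left out in turn, at folds of -0.19 to -0.14.

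No gene was called by edgeR among the other sensing complexes. These lists held 10 Rag and Ragulator genes, 4 members among them, 12 of GATOR1, GATOR2 and KICSTOR, 7 amino acid sensors, 5 tested AMPK subunits, 3 genes of the C9orf72-SMCR8 complex and 16 that act on the location or stability of MiT/TFE factors. At an unadjusted p under 0.05, 1 Rag or Ragulator gene (Rragc), 2 GATOR or KICSTOR genes, 2 sensors, 1 AMPK subunit and 4 location or stability genes were lower. By the same measure 1 GATOR or KICSTOR gene, 1 sensor and 2 location or stability genes were higher, and the C9orf72-SMCR8 list had none in either direction. Over all tested genes, 10.6% were lower and 8.14% higher at this threshold. DESeq2 called 1 gene lower in each of the Rag and Ragulator, GATOR and KICSTOR, and sensor lists and 2 in the location and stability list. It called 1 GATOR or KICSTOR gene and 1 location or stability gene higher, and limma-voom called none. The most abundant gene of each list that was no member stands for it. The Ragulator subunit Lamtor5 had a fold change of 0.11 ± 0.06, the GATOR2 subunit Sec13 0.16 ± 0.05 and the leucyl-tRNA synthetase Lars, a reported leucine sensor, 0.03 ± 0.04. The AMPK subunit Prkag1 had 0.07 ± 0.07, Smcr8 -0.09 ± 0.05 and Ywhae, a 14-3-3 protein of the family that retains TFEB in the cytoplasm, -0.07 ± 0.03, with edgeR adjusted p-values of 0.0999 to 0.759 over these 6 genes.

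Among genes known as CLEAR targets of MiT/TFE factors, those called were all lower on the structured surface, by -0.47 at most on the log2 scale. Of 66 tested, 15 were lower, or 22.7%, where 2.75% of all genes were, and their median fold change was -0.04, against 0.01 over all genes. None was called higher by edgeR, DESeq2 or limma-voom. At an unadjusted p under 0.05, 22 were lower and 1 higher, where 10.6% of all tested genes were lower and 8.14% higher. The 15 called lower became 8, 6 and 5 without structured 1, 2 and 4, where all genes called lower went from 440 to 243, 99 and 67. They became 9, 8 and 9 without smooth 2, 3 and 4, where all genes called lower numbered 177, 122 and 173. After correction for GC content and exon length 9 were called, among 152 in all. With the hepatocyte marker level as a covariate 8 were called, among 201 in all. Some of the CLEAR targets were known to be lower in these data when the lists were written. The difference between lists was not tested.

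The lysosomal list held 11 of these calls among 34 tested genes, with a median fold change of -0.10. Grn, which encodes the lysosomal glycoprotein progranulin, measured 405, 433, 486 and 424 CPM in structured 1 to 4, against 554, 615, 623 and 626 CPM in smooth 1 to 4. No libraries overlapped, and smooth 1 was the lowest smooth library by far, still above every structured one. The fold change of Grn was -0.47 ± 0.06 (edgeR BH-adjusted p = 0.00434). Npc1, the lysosomal cholesterol exporter, averaged 68.1 ± 3.08 CPM on the structured and 85.7 ± 2.58 CPM on the smooth surface, a fold change of -0.33 ± 0.04 (edgeR BH-adjusted p = 0.00689). Hexa, a subunit of beta-hexosaminidase, averaged 246 ± 12.6 CPM on the structured and 300.4 ± 9.23 CPM on the smooth surface, a fold change of -0.29 ± 0.04 (edgeR BH-adjusted p = 0.0098). Leaving out any 1 library did not end these 3 calls. Other genes called lower, named after their values were seen, included the hydrolases Gaa (-0.25), Gusb (-0.18), Scpep1 (-0.23) and Ctsd (-0.16), the saposin precursor Psap (-0.24) and the chloride transporter Clcn7 (-0.20), each with its log2 fold change. Of these 6, Ctsd lost its call with each of the 8 libraries left out in turn, Clcn7 with each but smooth 2, and Gaa without structured 2 or structured 4. Gusb, Scpep1 and Psap lost theirs without structured 1, 2 or 4 or smooth 2, 3 or 4, and the folds of the 6 genes stayed within -0.28 to -0.14. Lamp1 and Lamp2, membrane proteins that mark lysosomes, had fold changes of -0.10 and 0.03 and did not pass.

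Of 14 V-ATPase genes, which encode the lysosomal proton pump, 2 were lower, and the list's median fold change was -0.02. Atp6v0a1 averaged 42.8 ± 1.77 CPM on the structured and 54.2 ± 3.03 CPM on the smooth surface, a fold change of -0.34 ± 0.05 (edgeR BH-adjusted p = 0.011). Atp6v0d1 had a fold change of -0.19 ± 0.05 (edgeR BH-adjusted p = 0.0461), and its call held only without structured 3 or smooth 4 among the libraries left out in turn, at folds of -0.23 to -0.17. Both are subunits of the membrane sector of the pump. Of 18 autophagy genes, 2 were lower, and the median was 0.01. Plekhm1, an adaptor for fusion with lysosomes, averaged 119 ± 3.07 CPM on the structured and 150.4 ± 1.21 CPM on the smooth surface, a fold change of -0.33 ± 0.03 (edgeR BH-adjusted p = 9.92e-04) that was called with each library left out. Sqstm1, the autophagy receptor p62, averaged 481 ± 17.98 CPM on the structured and 568 ± 23.0 CPM on the smooth surface, a fold change of -0.24 ± 0.04 (edgeR BH-adjusted p = 0.0142). Without structured 2 or structured 4 the Sqstm1 call was lost, at folds within -0.26 to -0.22.

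**Figure D4:**
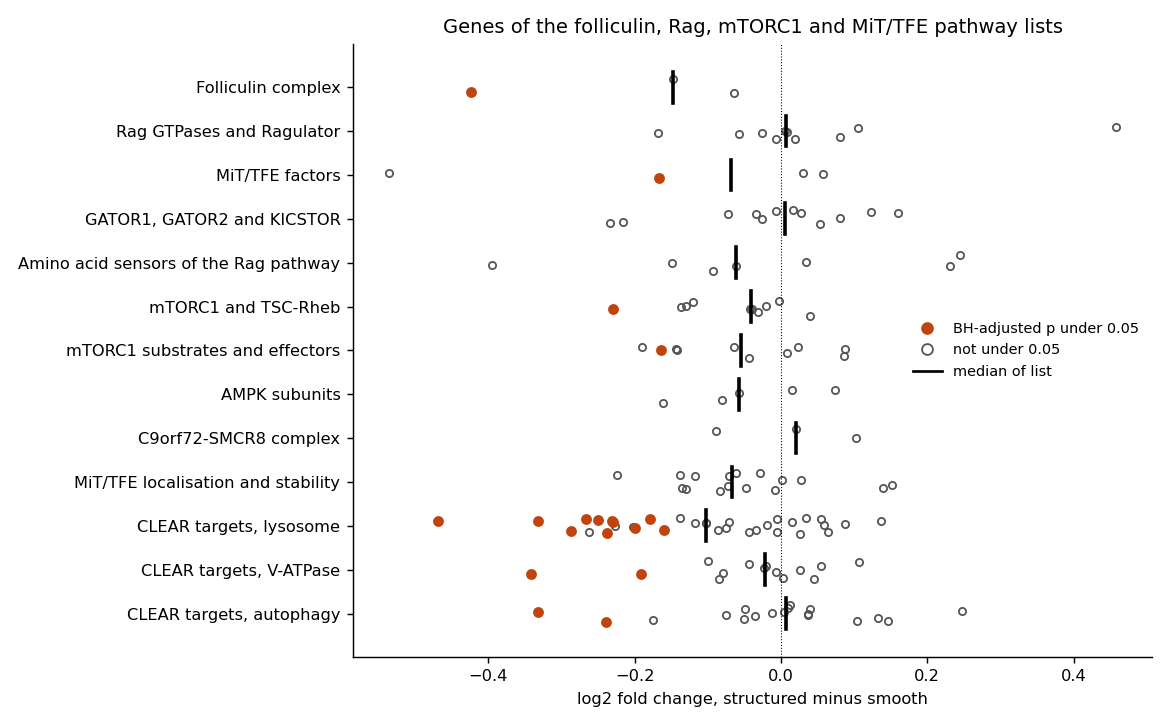
Fold change on the log2 scale, structured minus smooth, of every tested gene of the 13 pathway lists, 1 point per gene, filled where the adjusted p is under 0.05, with a black bar at each list's median. Filled points lie left of 0 in every list that has any, and the lysosomal list holds 11.

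Genes whose profile over the 8 libraries was among the nearest to that of Fnip2 were Myo1d, Atp6v0a1, Nav2 and Dync1h1. The measure was the root mean square difference of log2 CPM, each gene centred on its own mean, over 8883 tested genes with a mean of at least 10 CPM. It was 0.0565 for Myo1d, a class I myosin, 0.0570 for Atp6v0a1, 0.0652 for Nav2 and 0.0668 for Dync1h1, the heavy chain of cytoplasmic dynein, where the median over these genes was 0.236. These 4 were lower in every structured library than in any smooth one, at fold changes of -0.36, -0.34, -0.48 and -0.33 on the log2 scale. The likeness is a description over 8 libraries of both surfaces, so it includes the difference between the surfaces by which Fnip2 was chosen.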

How the data were processed

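The authors deposited 1 table that gives, for 26848 genes in each library, an estimated count and a length-normalized FPKM value. The deposited expected counts are whole numbers whose low values pile up at multiples of 4, and the deposited FPKM values are normalized for gene length and depth. Per the submitters' processing notes, cutadapt 1.9 trimmed the reads and HISAT2 2.2.1 aligned them. Not given in the sources used here are the counting tool, whether it used strand, the gene annotation and the genome build. GENCODE M21 holds 26779 of the genes, 24103 with identical coordinates.

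The members and the gene lists were chosen with earlier results of these data known. edgeR 4.0.16 (R 4.3.3) was run on the counts of all genes with filterByExpr (minimum count 10), TMM scaling and a quasi-likelihood test (two-sided) of structured minus smooth. Benjamini-Hochberg adjustment ran over 16006 genes at 0.05. The filter left out 10842 genes with low counts. CPM used TMM-scaled totals. The step was run on simulated counts drawn from edgeR's own count model, which lack the pile-up at multiples of 4. That run checks the code only and cannot show how the test behaves on the deposited counts. Named genes were all members, per list the called genes of smallest p (at most 3) or, where none was called, the gene of highest FPKM, and the 5 genes nearest to Fnip2. Genes named outside this rule were chosen after their values were seen, and some genes are not reported here.

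Alternatives were DESeq2 size factors, no filter and an FPKM filter, DESeq2 1.42.0, limma-voom and limma 3.58.1 on log2 FPKM (pseudocount 0.5, 0.1 or 1), a replicate block, each library left out, removal of the GC and length trend, and the hepatocyte marker level as a covariate. Counts divided by 4, and 2 combinations of libraries left out, were added after seeing the data. The longest annotated transcript of each member was searched, and none matched 250 bases at 95% identity in another gene that does not overlap it. Other transcripts of the members were not searched. Figures were drawn with matplotlib 3.10.9.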

Additional observations from a re-analysis of the deposited data

Results flagged for a closer look

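Of 60 groups of 4 libraries examined, 1 held a library far from the others, where chance gives about 1 in 20 such groups. For Grn, the progranulin gene, smooth 1 had 554 CPM and the other smooth libraries 615 to 626 CPM. The gap to the nearest library was 0.843 of the range, above the limit for 4 values. The structured libraries lay at 405 to 486 CPM, and the call of Grn held with smooth 1 left out.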

How the results depend on the processing

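Fnip2 was called under 21 of 22 alternatives, at folds of -0.44 to -0.38. The exception left out structured 2, 3 and 4 together. Tfe3 was called under 3 of 22 and Rragc under 7 of 22. No alternative called Fnip1, Flcn, Rraga, Rragd, Lamtor1, Tfeb or Mitf. The order of FPKM levels did not change under its alternatives, none of which altered the gene length used.

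Counts of genes called moved more. Genes called lower numbered 440, and 142 with no filter, 847 with DESeq2, 124, 153 and 122 with limma on log2 FPKM at pseudocounts of 0.5, 0.1 and 1, 152 after correction for GC and length, and 201 given the hepatocyte covariate. Genes called higher numbered 161, and 47 with no filter, 528 with DESeq2, and 67, 89 and 65 with limma at those pseudocounts. Left out in turn, libraries gave 67 to 427 genes lower and 21 to 170 higher, with structured 1, 2 and 4 and smooth 2, 3 and 4 each moving both counts by over 1.5 times.

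Members called lower numbered 2, and 1 with DESeq2 size factors, no filter, limma-voom, limma at each pseudocount or the hepatocyte covariate, and 1 to 2 with libraries left out in turn. DESeq2, the FPKM filter and counts divided by 4 gave 3. CLEAR targets called lower numbered 15, and 8 with no filter, 9 with limma at pseudocounts of 0.5 and 1, 9 with the trend removed, 8 with the covariate and 5 to 13 with libraries left out in turn. Other pathway genes called lower numbered 2, and 1 with no filter, 7 with the FPKM filter, 9 with DESeq2, 4 with counts divided by 4, 0 with limma at each pseudocount, the trend removed or the covariate, and 0 to 5 with libraries left out in turn. Other pathway genes called higher numbered 0, and 2 with DESeq2 and 0 to 1 with libraries left out in turn.

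Same-numbered libraries deviated with correlations of -0.06, 0.08, -0.00 and -0.16, beside -0.21 to 0.20 for libraries with different numbers. No pairing by number was seen, although so few correlations cannot show that a weak pairing is absent. The replicate block gave 374 genes lower and 125 higher, 2 members, 17 CLEAR targets and 4 other pathway genes lower. Under the replicate block Fnip2 kept its call (-0.42), Rragc was called and Tfe3 was not.

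Counts divided by 4 and the next 2 alternatives were chosen after seeing the data. With structured 2, 3 and 4 left out, 4 genes were lower and 3 higher, with 0 members, 0 CLEAR targets and 0 other pathway genes among them. With structured 4 and smooth 1 left out, the libraries with most hepatocyte marker RNA, 87 were lower and 50 higher, with 1 member, 7 CLEAR targets and 0 other pathway genes lower.

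Directions changed only for genes that were not called. Flcn was at 0.0449 without structured 2, 3 and 4 and at 0.0178 without structured 4 and smooth 1. Lamtor1 was at -0.0124 with the trend removed and at -3.3e-05 without structured 2, 3 and 4, and Tfeb was at -0.34 there. Without structured 2, 3 and 4, Lars was at -0.0194 and Prkag1 at -0.0462, and without structured 4 and smooth 1 Lars was at -0.00503. With libraries left out in turn, Rraga ran from -0.0189 to 0.0175, Lamtor1 from -0.0195 to 0.0739, Tfeb from -0.125 to 0.168 and Mitf from -0.0239 to 0.110. The causes of these changes were not tested.

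Each library's depth left Rragd near the limit of detection, and 4 libraries per surface limit what small folds can pass. Protein levels and TFEB location were not measured, so the activity of the pathway was not assessed.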

Other observations

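Several genes of the nutrient-sensing lists lay just short of the threshold and were picked here after their values were seen. They were tested with edgeR and BH adjustment. Gsk3b, a kinase of TFEB, had a log2 fold change of -0.22 ± 0.06 (edgeR adjusted p = 0.0524) and Eif4ebp2, a translation repressor that mTORC1 phosphorylates, -0.19 ± 0.05 (edgeR adjusted p = 0.055). Sesn2, a leucine sensor induced by stress, measured 26.6, 24.5, 33.4 and 26.4 CPM in structured 1 to 4, against 33.4, 32.9, 35.8 and 43.8 CPM in smooth 1 to 4, a fold change of -0.39 ± 0.11 (edgeR adjusted p = 0.0702). Mtor and its partner Rptor had -0.14 ± 0.04 and -0.13 ± 0.04 (edgeR adjusted p = 0.0912 and 0.0798). Xpo1, the exportin that carries TFEB out of the nucleus, had 0.14 ± 0.04 in the other direction (edgeR adjusted p = 0.0705).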
